A study of Mus musculus with 3 samples.

Results

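The genes described here encode the enzymes that break glucose down to pyruvate and lactate, carry pyruvate into the mitochondrion and run the tricarboxylic acid (TCA) cycle. They are 40 genes, picked by symbol for their place in these pathways, out of 49585 listed per library: 18 of glycolysis and lactate formation, 10 of pyruvate entry and 12 of the TCA cycle. They were measured by sequencing total RNA of the midbrain of C57BL/6 mice at postnatal day 3, in 1 wild-type (WT) library and 2 libraries whose genotype is labelled FGR, a name kept here as it stands in the labels, which leave it unexplained. Strain, tissue and age are the same in all groups, the labels name no other allele or treatment, and they do not say whether each library came from 1 animal or from a pool. The comparison is FGR against WT. Fgr, the kinase gene that shares the name, had 6 counts in WT and 3 and 4 in FGR, too few to check any label by.

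Glycolysis splits glucose into pyruvate in the cytosol. Pyruvate is then either reduced to lactate or passed through the mitochondrial pyruvate carrier to the pyruvate dehydrogenase complex, which feeds acetyl-CoA to the TCA cycle. Many steps are shared among paralogous genes with different tissue patterns, and the brain uses several at once: Eno2 is the enolase of neurons, and Ldhb and Ldha encode the lactate dehydrogenase subunits typical of heart and of skeletal muscle. The newborn rodent brain also burns ketone bodies and lactate from milk and blood, and its reliance on glucose grows later.

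In FGR midbrain 4 of the 18 glycolysis genes fell: Pfkl, Tpi1, Eno2 and Ldha, by 21.3% to 29.2%. None rose. In the pyruvate group 0 of 10 genes passed the test in either direction, and in the TCA cycle 1 of 12 fell, Ogdh, by 16.3%. By edgeR's quasi-likelihood test at an adjusted p under 0.05, 4.25% of all 25561 genes tested were called, 2.59% as lower and 1.66% as higher in FGR. Among the 13226 genes at or above the mean level of the lowest member, 3.83% were called lower. Against that background, 22.2% of the glycolysis genes, 0% of the pyruvate genes and 8.33% of the TCA genes were called lower. The median log2 fold change (FGR minus WT) was -0.07 over the glycolysis genes, -0.01 over the pyruvate genes and -0.02 over the TCA genes, beside 0.0051 over all genes tested.

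The 3 libraries held 46240262 to 58444481 counts, and the members 254 to 34939 counts each per library. All 40 members passed the filter on low counts. Nothing states that separate animals gave the FGR libraries, though their Xist values, given below, differ far more than repeats of 1 sample would. Technical spread and spread between animals cannot be told apart here, and a p-value covers these samples alone. The FGR pair gives 1 residual degree of freedom, and the fit assumed that WT would vary as that pair did. With a median of 14 total degrees of freedom, the error of a gene leaned mostly on spread pooled over genes. How the single WT library was dissected and prepared cannot be told apart from its genotype. The libraries stood apart in markers of region: hypothalamic and ventral forebrain markers summed to 55.5 CPM (read counts scaled to a common library total) in WT but 7.40 and 7.70 CPM in the FGR pair. Markers of the midbrain region were present in all, at a sum of 309 CPM in WT and 484 and 410 CPM in FGR.

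Levels differed far more between the members than between the groups. They are compared here as these TMM-scaled CPM per kilobase of the deposited gene length. In WT the most abundant were Gapdh, which oxidises glyceraldehyde-3-phosphate, at 136, Aldoa, the main aldolase, at 106, and Pgam1, a phosphoglycerate mutase, at 105. Tpi1, Cs and Pkm followed at 83.6, 83.0 and 82.8, which a single WT library cannot put in order. Cs, which encodes citrate synthase, and Mdh1, the cytosolic malate dehydrogenase, at 79.1, were the most abundant of the TCA group. The lowest members were Hk2, an inducible hexokinase, at 0.943, Pdk2, a kinase that switches pyruvate dehydrogenase off, at 1.87, and Pfkfb3, which makes the activator of phosphofructokinase, at 3.27. What the deposited lengths cover is not stated, and a length that joins all transcript forms understates the level of a gene with many of them.

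**Figure D1:**
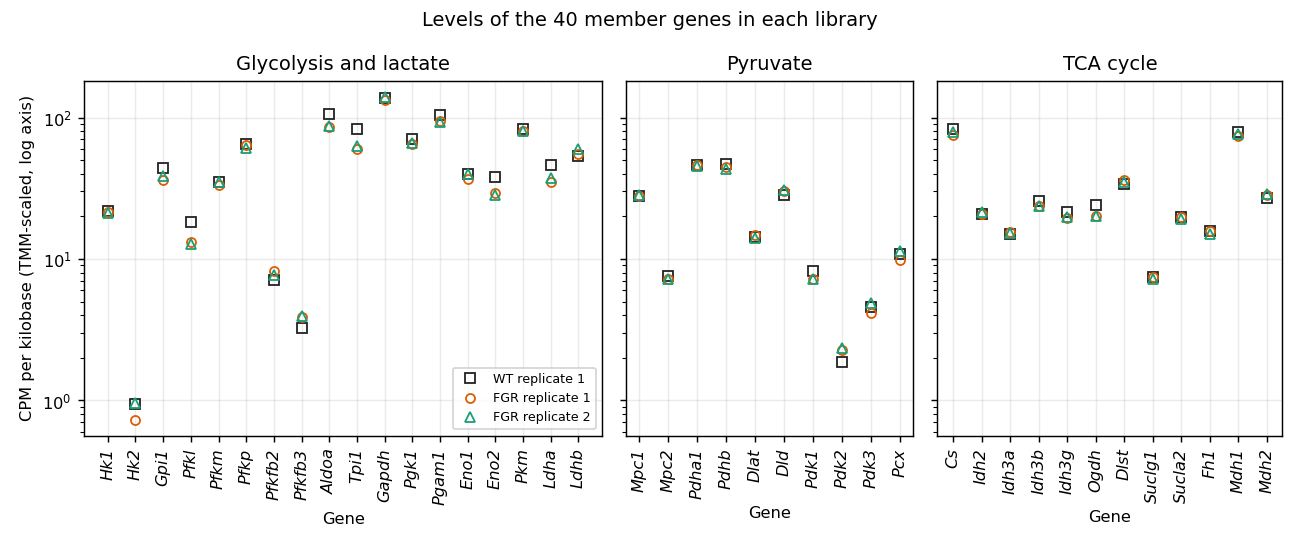
TMM-scaled CPM per kilobase (log axis) of the 40 member genes in WT replicate 1 (squares), FGR replicate 1 (circles) and FGR replicate 2 (triangles), in 3 groups. The 3 symbols of most genes lie close together, while genes range from 0.734 for Hk2 in FGR replicate 1 to 139 for Gapdh in FGR replicate 2.

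The first steps of glycolysis trap glucose in the cell and commit it to breakdown. Hk1, the main hexokinase of brain, was at 185 CPM in the WT library, with 182 and 179 CPM in the FGR pair, a difference smaller than its error (adjusted p = 0.872). Hk2 was at 5.63 CPM in WT, against 4.38 and 5.73 CPM in FGR, so the groups overlapped. Gpi1, which turns glucose-6-phosphate into fructose-6-phosphate, was at 283 CPM in the WT library, with 235 and 250 CPM in the FGR pair. Both FGR libraries were below WT for Gpi1, but it did not pass the test (log2 fold change -0.22 ± 0.08 SE, adjusted p = 0.162).

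Phosphofructokinase is the committed step, and its subunits come from 3 genes named for liver, muscle and platelet. Pfkl, the liver-type subunit gene (ENSMUSG00000020277.9), was at 80.1 CPM in WT, against 57.6 and 55.8 CPM in FGR. The FGR pair lay close together and well below WT. Its log2 fold change was -0.50 ± 0.06 (SE), or 29.2% lower (95% interval -35.5% to -22.3%; edgeR adjusted p = 4.91e-04), and it was the largest fall among the 40 members. Pfkm was at 104 CPM in the WT library, with 99.2 and 104 CPM in the FGR pair, with overlap between the groups. Pfkp, the most abundant of the 3 per length, was at 609 CPM in WT, against 602 and 576 CPM in FGR (adjusted p = 0.860). Over the 3 genes together the level per kilobase was 118 in WT and 111 and 109 in FGR.

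The bifunctional enzymes of the PFKFB family set the concentration of fructose-2,6-bisphosphate, the activator of phosphofructokinase. Pfkfb2 was at 51.3 CPM in the WT library, with 59.6 and 56.0 CPM in the FGR pair. Reads of Pfkfb2 may be shared with Gm29427. Pfkfb3 was at 24.7 CPM in WT, against 29.5 and 29.9 CPM in FGR. Both genes were higher in both FGR libraries, with log2 fold changes of 0.17 ± 0.07 and 0.27 ± 0.10 (SE), and neither passed the adjusted test (adjusted p = 0.198 and 0.160). They were the 2 glycolysis genes higher at an unadjusted p under 0.05; 0 were called higher by edgeR, DESeq2 or limma-voom.

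In the middle of the pathway, aldolase and triosephosphate isomerase split the sugar and interconvert its products. Aldoa was at 398 CPM in the WT library, with 320 and 329 CPM in the FGR pair. Both FGR libraries were lower, by 18.4% in the fit, yet its edgeR adjusted p was 0.0800. DESeq2 and limma-voom called it (adjusted p = 0.0215 and 0.0223). Tpi1, the isomerase gene (ENSMUSG00000023456.14), was at 230 CPM in WT, against 164 and 174 CPM in FGR. It fell by 26.5% (log2 fold change -0.44 ± 0.08 SE; 95% interval -34.4% to -17.7%; edgeR adjusted p = 0.00484), with both FGR libraries well below WT.

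From Gapdh to Pkm, the genes outside enolase did not pass the test. Gapdh was at 563 CPM in the WT library, with 551 and 576 CPM in the FGR pair, 1 library on each side of WT. Pgk1, which makes the first ATP, was at 157 CPM in WT, against 146 and 149 CPM in FGR (adjusted p = 0.565). Pgam1 was at 192 CPM in the WT library, with 174 and 171 CPM in the FGR pair (log2 fold change -0.16 ± 0.07 SE, adjusted p = 0.284). Pkm, the pyruvate kinase gene of brain and muscle, was at 414 CPM in WT and at 404 CPM in each FGR library (adjusted p = 0.887). Gene-level counts do not separate the 2 splice forms of Pkm.

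Of the enolase pair, which turns phosphoglycerate into phosphoenolpyruvate, Eno2 passed the test and Eno1 did not. Eno2, the neuronal enolase gene (ENSMUSG00000004267.16), was at 180.1 CPM in WT, against 137 and 133 CPM in FGR. It fell by 25.2% (log2 fold change -0.42 ± 0.07 SE; 95% interval -32.6% to -16.9%; edgeR adjusted p = 0.00417), and the FGR pair was far below WT. Eno1, the enolase gene of most tissues, was at 213 CPM in the WT library, with 197 and 215 CPM in the FGR pair, so its groups overlapped (95% interval -14.5% to 9.31%). Of all reads on the 2 genes, Eno2 took 45.8% in WT (95% Wilson interval 45.1% to 46.5%) but 41.0% and 38.2% in FGR (40.3% to 41.7% and 37.4% to 38.9%). Such intervals cover counting error only, and the difference in response between the paralogs was not tested.

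Lactate dehydrogenase interconverts pyruvate and lactate, and here too 1 of the pair passed the test. Ldha, the subunit gene that favours making lactate (ENSMUSG00000063229.15), was at 153 CPM in WT, against 117 and 124 CPM in FGR. It fell by 21.3% (log2 fold change -0.35 ± 0.07 SE; 95% interval -29.2% to -12.6%; edgeR adjusted p = 0.0133). That call was lost when genes had to reach 1 CPM in every library (adjusted p = 0.0528). Ldhb, the subunit gene that favours using lactate, was at 83.9 CPM in the WT library, with 87.0 and 94.3 CPM in the FGR pair. Ldhb was higher in both FGR libraries but did not pass the test (log2 fold change 0.11 ± 0.07 SE, adjusted p = 0.438). The share of Ldhb among the reads of the pair was 35.4% in WT (34.6% to 36.3%) but 42.7% and 43.2% in FGR (41.9% to 43.6% and 42.2% to 44.2%). Per kilobase, Ldhb made up 53.6% of the pair in WT and 61.1% and 61.6% in FGR.

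**Figure D2:**
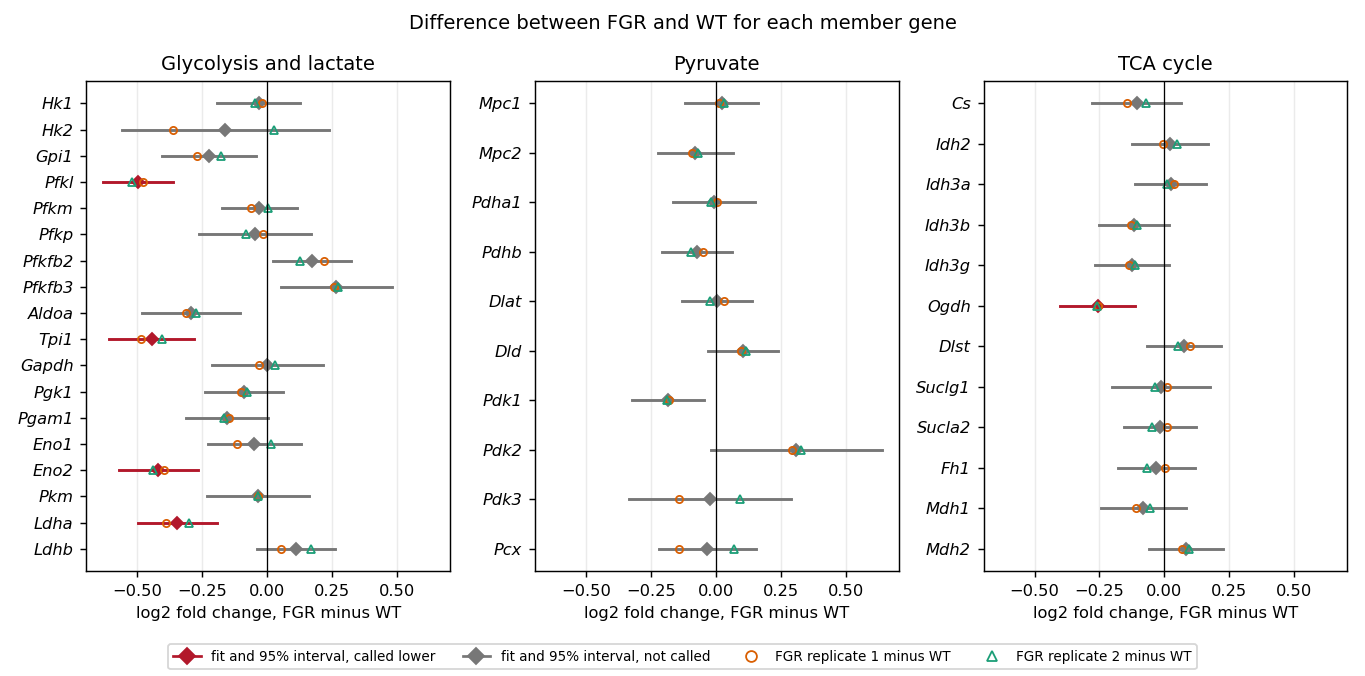
Log2 fold change of FGR against WT for each member (diamonds, with the 95% interval of the edgeR fit as a line) and the difference of each FGR library from WT (open symbols), in 3 panels by pathway. The intervals of the 5 genes called lower, in red, lie wholly below 0: Pfkl, Tpi1, Eno2, Ldha and Ogdh.

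Over the whole glycolysis group, both FGR libraries were below WT for 11 genes, above for 3 and on both sides for 4, where 38.2% of all genes tested had both libraries below WT (36.5% of the genes at or above the lowest member's level) and 38.5% both above. The summed level of the 18 genes was 3926 CPM in WT and 3566 and 3625 CPM in FGR. With 1 FGR library at a time set against WT, with no test, the median log2 difference was -0.11 for FGR replicate 1 and -0.06 for FGR replicate 2.

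The bases just before the start of the 4 glycolysis genes that fell, and of Ldhb as the paralog of Ldha, are shown because genes of this pathway are known targets of hypoxia-inducible factors, which bind a short element around ACGTG. The sequences are from RefSeq on GRCm38.p6, matched by symbol for 39 of the 40 members (not Idh3a). They cover the 250 bases before the most upstream start listed there for the gene. GENCODE M21 starts Pfkl, Tpi1 and Ldha farther upstream, so their windows lie wholly or in part inside the gene as annotated there. For Ldha the 50 bases after the RefSeq start matched no GENCODE M21 transcript of the gene as 1 unbroken stretch. Each is written 5′ to 3′ on the gene's strand, and capitals mark ACGTG on either strand (CACGT when read on the other), where overlapping matches are merged.
Pfkl (chr10:78009808-78010057, minus strand): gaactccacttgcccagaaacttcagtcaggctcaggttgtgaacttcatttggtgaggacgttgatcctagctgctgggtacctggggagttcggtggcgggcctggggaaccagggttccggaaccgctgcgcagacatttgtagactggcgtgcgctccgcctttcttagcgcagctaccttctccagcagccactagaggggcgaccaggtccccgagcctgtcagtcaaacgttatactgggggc
Tpi1 (chr6:124814159-124814408, minus strand): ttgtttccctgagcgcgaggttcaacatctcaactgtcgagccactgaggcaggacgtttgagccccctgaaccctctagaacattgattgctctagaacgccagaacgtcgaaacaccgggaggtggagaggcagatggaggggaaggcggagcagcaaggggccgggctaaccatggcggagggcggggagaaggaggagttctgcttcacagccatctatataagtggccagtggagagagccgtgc
Eno2 (chr6:124769674-124769923, minus strand): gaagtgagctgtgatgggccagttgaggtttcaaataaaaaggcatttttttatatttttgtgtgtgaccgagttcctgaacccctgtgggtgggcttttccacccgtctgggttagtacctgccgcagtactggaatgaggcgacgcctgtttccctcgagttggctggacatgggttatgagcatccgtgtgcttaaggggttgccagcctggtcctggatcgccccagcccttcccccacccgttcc
Ldha (chr7:46845554-46845803, plus strand): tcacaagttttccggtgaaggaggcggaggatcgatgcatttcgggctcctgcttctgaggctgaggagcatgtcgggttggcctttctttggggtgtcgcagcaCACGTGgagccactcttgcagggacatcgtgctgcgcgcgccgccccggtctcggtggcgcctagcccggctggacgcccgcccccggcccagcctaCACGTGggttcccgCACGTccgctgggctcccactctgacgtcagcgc
Ldhb (chr6:142507958-142508207, minus strand): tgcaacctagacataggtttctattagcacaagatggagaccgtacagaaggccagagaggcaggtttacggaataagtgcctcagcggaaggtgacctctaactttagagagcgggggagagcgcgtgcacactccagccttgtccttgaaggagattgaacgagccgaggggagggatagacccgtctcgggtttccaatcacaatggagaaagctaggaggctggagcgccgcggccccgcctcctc
Ldha held 3 such stretches, of which the nearest ended 29 bases before the RefSeq start. Pfkl, Tpi1, Eno2 and Ldhb held no ACGTG in this window. The related GCGTG, which the capitals do not mark, stood in the windows of Pfkl and Ldhb. ACGTG on either strand stood in 6 of 18 glycolysis promoters, 4 of 10 pyruvate promoters and 3 of 11 TCA promoters, together 33.3% of the members and 16.5% of all 27025 promoters of the same length. GCGTG stood in 48.7% of the members and 28.3% of all promoters on either strand. CACGTG, which contains ACGTG on both strands, stood in 10.3% of the members and 6.04% of all promoters. The members' promoters had a median GC content of 61.2%, where all promoters had 52%, and both motifs contain CG. A match is a description of letters and says nothing about binding.

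Eno2 and Tpi1, which both fell, are near neighbours. In the GENCODE M21 gene order Eno2 and Tpi1 are on chromosome 6, on the same strand, with 2 other tested genes, Lrrc23 and Spsb2, between them. The neighbours are named after their values were seen. Lrrc23, next to Eno2, was at 5.81 CPM in WT, against 4.03 and 3.98 CPM in FGR (adjusted p = 0.0894). Spsb2 was at 3.92 CPM in the WT library, with 5.10 and 3.94 CPM in the FGR pair (adjusted p = 0.635). Outside the pair, Atn1 and Rnu7 on the side of Eno2 were not called (adjusted p = 0.403 and 0.488). Usp5, next to Tpi1, was at 193 CPM in WT, against 200 and 197 CPM in FGR (adjusted p = 0.839). Cdca3, a cell division gene beyond Usp5, was at 6.34 CPM in the WT library, with 2.93 and 4.33 CPM in the FGR pair, and it fell (log2 fold change -0.81 ± 0.21 SE, edgeR adjusted p = 0.0419).

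Pyruvate enters the mitochondrion through a carrier made of MPC1 and MPC2. Mpc1 was at 57.6 CPM in the WT library, with 58.1 and 58.9 CPM in the FGR pair, and Mpc2 was at 56.0 CPM in WT, against 52.6 and 53.4 CPM in FGR. Neither passed the test (adjusted p = 0.903 and 0.595). The catalytic subunit genes of pyruvate dehydrogenase did not pass either: Pdha1 was at 172 CPM in the WT library, with 173 and 170 CPM in the FGR pair, and Pdhb was at 69.2 CPM in WT, against 66.8 and 64.8 CPM in FGR. The 95% interval of the fold change ran from -10.7% to 11.1% for Pdha1 and from -13.4% to 4.38% for Pdhb. Dlat, the acetyl-transferring core, was at 70.35 CPM in the WT library, with 71.8 and 69.2 CPM in the FGR pair. Dld, the subunit shared with the 2-oxoglutarate dehydrogenase complex, was at 63.6 CPM in WT, against 67.9 and 68.9 CPM in FGR (adjusted p = 0.407).

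Pyruvate dehydrogenase kinases inactivate the complex. Pdk1, a target of hypoxia-inducible factors, was at 64.0 CPM in the WT library, with 56.5 and 56.2 CPM in the FGR pair. Both FGR libraries were below WT, and the log2 fold change of -0.19 ± 0.06 (SE) passed at the unadjusted level but not after adjustment (adjusted p = 0.132). Pdk2 was at 5.91 CPM in WT, against 7.24 and 7.42 CPM in FGR (adjusted p = 0.306). Pdk3 was at 11.8 CPM in the WT library, with 10.7 and 12.6 CPM in the FGR pair, with overlap. Pdk1 took 78.3% of the reads of the 3 kinases in WT (77.1% to 79.5%) and 75.9% and 73.7% in FGR (74.6% to 77.2% and 72.3% to 75.2%). Pcx, which turns pyruvate into oxaloacetate and is known as an astrocyte enzyme in brain, was at 46.6 CPM in WT, against 42.2 and 49.0 CPM in FGR. Of the 10 pyruvate genes, edgeR, DESeq2 and limma-voom called 0, and 1 (Pdk1) had an unadjusted p under 0.05.

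**Figure D3:**
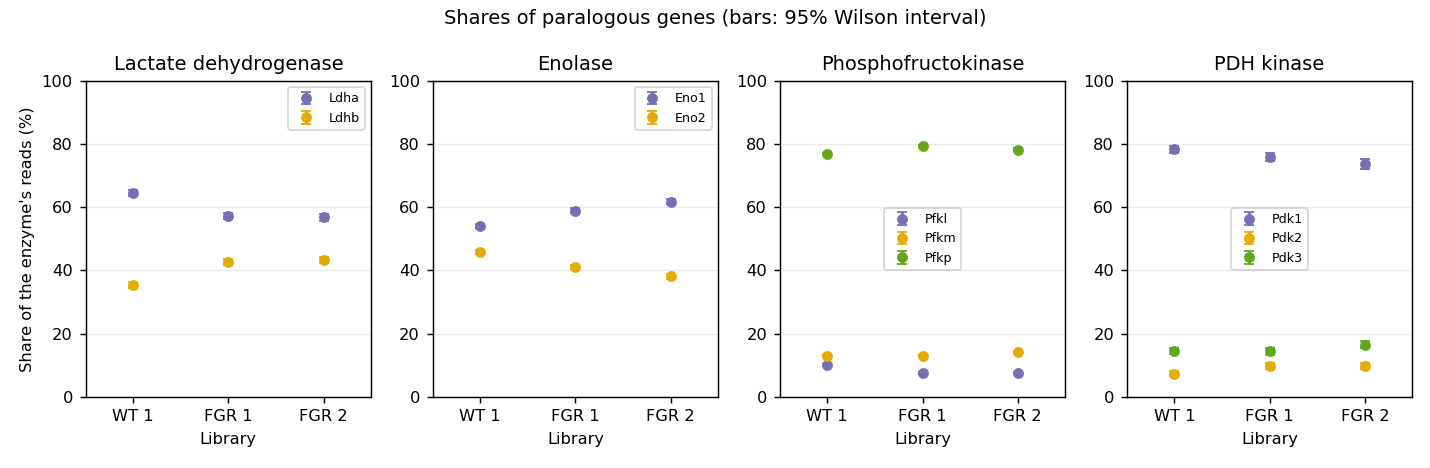
Share of the reads (percent) of each paralog within lactate dehydrogenase, enolase, phosphofructokinase and pyruvate dehydrogenase kinase in each library, with 95% Wilson intervals as bars. The share of Ldhb was 35.4% in WT but 42.7% and 43.2% in FGR, and that of Eno2 was 45.8% in WT but 41.0% and 38.2% in FGR.

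In the TCA cycle 1 gene of 12 passed the test. Ogdh, the catalytic subunit gene of the 2-oxoglutarate dehydrogenase complex (ENSMUSG00000020456.17), was at 131 CPM in the WT library, with 109.8 and 109.6 CPM in the FGR pair. The FGR pair was nearly equal and below WT, 16.3% lower (log2 fold change -0.26 ± 0.07 SE; 95% interval -24.2% to -7.60%; edgeR adjusted p = 0.0451). That call was lost in DESeq2 (adjusted p = 0.179), in limma-voom (adjusted p = 0.0564), with genes required to reach 1 CPM in every library (adjusted p = 0.0731), after an offset for GC and length (adjusted p = 0.0921) and over only the protein-coding genes (adjusted p = 0.0550). Dlst, the next subunit gene of the same complex, was at 93.7 CPM in WT, against 100.3 and 97.1 CPM in FGR, higher in both (adjusted p = 0.611), though its counts may be shared with Rap2a.

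Citrate synthase and the isocitrate dehydrogenases did not pass it. Cs was at 235 CPM in the WT library, with 213 and 223 CPM in the FGR pair (adjusted p = 0.535). The 3 subunit genes of the NAD-dependent isocitrate dehydrogenase did not all lie on the same side. Idh3a was at 76.7 CPM in WT, against 78.8 and 77.3 CPM in FGR. Idh3b was at 87.9 CPM in the WT library, with 80.4 and 81.7 CPM in the FGR pair, and Idh3g at 57.98 CPM in WT, against 52.7 and 53.6 CPM in FGR. Neither Idh3b nor Idh3g passed the test (adjusted p = 0.356 and 0.343). Idh2, the mitochondrial NADP-dependent enzyme gene, was at 53.8 CPM in the WT library, with 53.5 and 55.6 CPM in the FGR pair.

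None of the later steps passed the test. The subunit genes of succinyl-CoA synthetase, Suclg1 and Sucla2, were at 34.4 and 78.9 CPM in WT, inside the FGR ranges of 33.5 to 34.6 and 76.2 to 79.5 CPM. Fh1, the fumarase gene, was at 53.4 CPM in WT, against 53.5 and 51.0 CPM in FGR. Mdh1 was at 203 CPM in the WT library, with 188 and 196 CPM in the FGR pair (adjusted p = 0.641). Mdh2, the mitochondrial malate dehydrogenase gene, was at 96.2 CPM in WT, against 100.9 and 102.8 CPM in FGR (adjusted p = 0.571). The 12 TCA genes summed to 1202 CPM in WT but 1145 and 1157 CPM in FGR. Both FGR libraries were below WT for 5 genes, above for 3 and on both sides for 4. Of all genes tested, 38.2% had both FGR libraries below WT and 38.5% both above. Among genes at or above the lowest member's level, 36.5% had both below.

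Other genes of these pathways were tested alongside. Of 21 further glycolysis genes 18 were tested and 0 called by edgeR, with 1 lower and 1 higher at an unadjusted p under 0.05, 0 called by DESeq2 and 1 lower by limma-voom. The most abundant of them was Aldoc, the aldolase gene of astrocytes, at 146 CPM in the WT library, with 147 and 152 CPM in the FGR pair. Of 9 further pyruvate genes 8 were tested, and 1 rose and 1 fell. Over all genes edgeR called 1.66% higher and 2.59% lower. Pdhx, the subunit gene that binds Dld into the complex, was at 45.5 CPM in WT, against 55.5 and 54.0 CPM in FGR, a rise of 0.27 ± 0.07 on the log2 scale (SE; adjusted p = 0.0464). Pdk4, the kinase gene induced by fasting and fatty acids, had 146 counts in WT but 86 and 46 in the FGR pair, and it fell by 1.11 ± 0.27 on the log2 scale (SE; adjusted p = 0.0331). DESeq2 called neither, with an adjusted p of 0.386 for Pdhx and none given for Pdk4, and limma-voom called Pdk4 alone (adjusted p = 0.0347, and 0.0770 for Pdhx). Pdp1, a phosphatase gene that reactivates the complex and the most abundant of the list, was at 81.2 CPM in the WT library, with 100.9 and 89.98 CPM in the FGR pair (adjusted p = 0.103).

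Of 14 further TCA genes 0 were called by edgeR, DESeq2 or limma-voom, and 3 were lower at an unadjusted p under 0.05. Of 11 genes of the redox shuttles and of pathways that draw on the cycle 2 fell. Of all genes tested, edgeR called 2.59% lower. Slc25a1, which exports citrate from the mitochondrion, was at 57.2 CPM in the WT library, with 43.2 and 44.3 CPM in the FGR pair (log2 fold change -0.39 ± 0.07 SE, adjusted p = 0.00633). Gpd2, the mitochondrial glycerol-3-phosphate dehydrogenase gene, was at 61.9 CPM in WT, against 48.2 and 51.3 CPM in FGR (log2 fold change -0.32 ± 0.07 SE, adjusted p = 0.0200). DESeq2 called neither (adjusted p = 0.0658 and 0.191), and limma-voom called both (adjusted p = 0.0123 and 0.0375). Acly, which splits that citrate in the cytosol and was the most abundant of the list, was at 218 CPM in the WT library, with 199.7 and 205 CPM in the FGR pair. Of 7 pentose phosphate genes 0 were called by edgeR, DESeq2 or limma-voom and 1 was lower at an unadjusted p under 0.05. Their most abundant gene, Tkt, was at 183 CPM in WT, against 161 and 170 CPM in FGR (adjusted p = 0.312).

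Hypoxia-inducible factors drive many glycolysis genes, so other targets of theirs were counted. Of 16 such genes 1 fell and 0 rose by edgeR, DESeq2 and limma-voom. Over all genes edgeR called 2.59% lower and 1.66% higher. At an unadjusted p under 0.05, 4 of the targets were lower and 4 higher. The share of all genes at that unadjusted level was not counted, so such counts, here and for other lists, have no background. Vegfa, the endothelial growth factor gene, fell from 31.2 CPM in WT to 21.09 and 20.98 CPM in FGR (adjusted p = 0.00700). Bnip3l, a mitophagy receptor gene and the most abundant target, was at 94.2 CPM in the WT library, with 108 and 107 CPM in the FGR pair (adjusted p = 0.134). Of 12 regulators of metabolic genes 0 were called by edgeR, DESeq2 or limma-voom, with 2 lower and 2 higher at an unadjusted p under 0.05. Hif1a, the most abundant of them, was at 111 CPM in WT, against 126 and 122 CPM in FGR (adjusted p = 0.248).

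Markers of cell types moved with the groups. Fewer cells of a type and less RNA per cell cannot be told apart in bulk tissue. Neuron markers, among which 0 of 10 were called by edgeR (4 lower and 1 higher at an unadjusted p under 0.05, 0 by DESeq2 and 1 lower by limma-voom), summed to 5539 CPM in WT but 5343 and 5195 CPM in FGR. Astrocyte markers fell for 4 of 10 genes and summed to 1726 CPM in WT but 1304 and 1503 CPM in FGR. Oligodendrocyte lineage markers fell for 4 of 10 genes (505 CPM in WT, 402 and 418 CPM in FGR). Microglia markers also fell for 4 of 10 (171 CPM, and 123 and 132 CPM), as did those of endothelium (203 CPM, and 157 and 161 CPM). Fibroblast markers of the meninges fell for 8 of 10 genes, from 969 CPM to 392 and 621 CPM. DESeq2 called 3, 3, 1, 0 and 1 gene lower in the lists from astrocytes to meninges, and limma-voom called 5, 3, 5, 3 and 9. Over all genes DESeq2 called 229 of 14993 lower and limma-voom 732 of 25561.

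Proliferation markers fell for 1 of 8 genes (161 CPM in WT, 106 and 147 CPM in FGR), and hypothalamic and ventral forebrain markers for 9 of 10, with Nkx2-4 at 0 counts in both FGR libraries and Fezf2 at 0 in FGR replicate 1. Midbrain region markers rose for 6 of 10 genes. Erythroid markers rose for 5 of 6 tested genes, from a sum of 209.6 CPM to 308 and 339 CPM. Skeletal muscle and choroid plexus markers were low, at 11.5 and 40.1 CPM in WT, with 1 gene of each list higher. DESeq2 called 0 proliferation and 3 hypothalamic genes lower, and limma-voom 2 and 9. DESeq2 called 4 midbrain, 4 erythroid, 0 muscle and 0 choroid plexus genes higher, and limma-voom 6, 4, 1 and 1. Over all genes tested, edgeR called 2.59% lower and 1.66% higher. The part of these shifts in the values of the glycolysis and TCA genes was not tested.

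**Figure D4:**
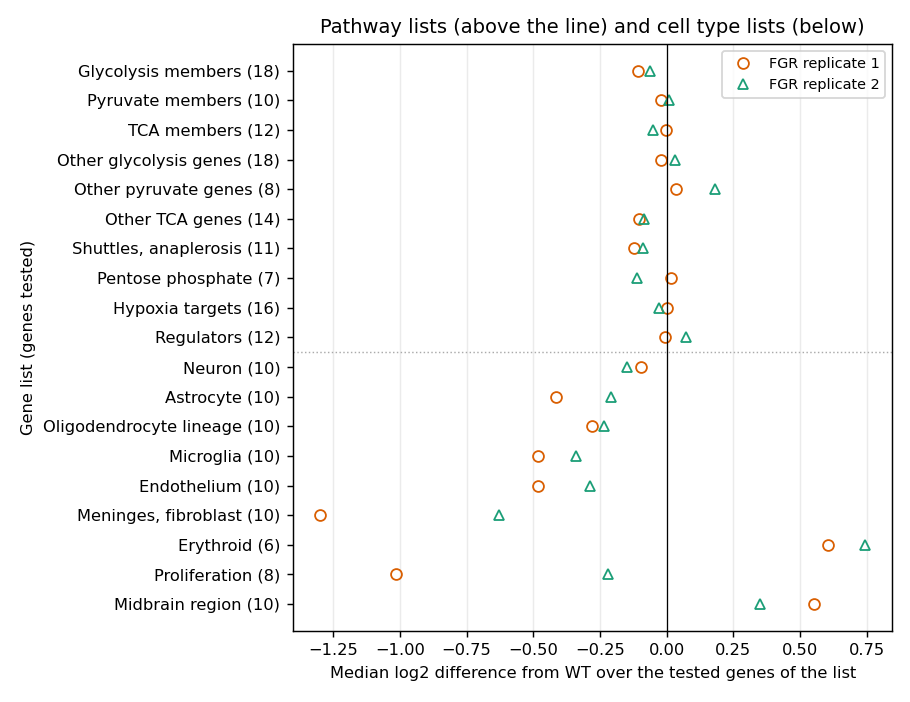
Median log2 difference of each FGR library from WT over the tested genes (number in parentheses) of the pathway lists, above the dotted line, and of marker lists, below it. The glycolysis medians of -0.11 and -0.06 lie close to 0 beside those of meningeal markers, at -1.30 and -0.63. The skeletal muscle, choroid plexus and hypothalamic and ventral forebrain lists are not drawn. The hypothalamic and ventral forebrain medians were farther from 0, at -4.06 and -3.50.

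Glycolysis genes have many processed copies in the mouse genome, and reads that match several copies can be counted at any of them. Other listed genes with at least 90% identity over at least 300 bases were found for 18 of the 40 members in GENCODE M21 transcripts. Gapdh had 202 of them, and together they held 250.3% of the counts of Gapdh itself in WT, with 239% and 250.1% in FGR. With its copies added, Gapdh stood at 1973 CPM in the WT library, with 1867 and 2015 CPM in the FGR pair, again on both sides of WT. The copies of Pgk1 held 23.6% to 25.7% of its own counts, those of Eno1 12.2% to 13.5%, those of Pgam1 9.71% to 9.76% and that of Mpc1 23.1% to 27.2%. For Pkm such genes held 16.11% to 17.99% of its counts, nearly all at 1 listed gene. Gm29427 shares sequence with Pfkfb2 and held 23.9% to 26.4% of its counts. Rap2a shares 347 bases with Dlst and held 76.2% of the counts of Dlst in WT, with 59.8% and 60.5% in FGR. How many of these reads come from the shared stretches was not tested, and the levels of these 8 genes are therefore uncertain. Of the genes that fell, Pfkl, Eno2 and Ogdh had 0 such copies, that of Tpi1 held at most 0.0807% and those of Ldha at most 1.88% of the gene's own counts. The sources used here do not state whether reads were counted by strand. Pfkp and Pdha1 overlap Pitrm1 and Map3k15 on the opposite strand, and without strand their reads cannot be told apart there. Pitrm1 held 4.67% to 5.49% of the counts of Pfkp, and Map3k15 23.2% to 24.6% of those of Pdha1.

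The members on the X chromosome were Pgk1, Pdha1, Pdk3 and Idh3g, 4 of the 40, and 0 of them were called by edgeR, DESeq2 or limma-voom or had an unadjusted p under 0.05. Xist, the RNA that coats the inactive X chromosome, was at 541 CPM in WT, against 591 and 1.71 CPM in FGR, so it was close to WT in FGR replicate 1 and nearly absent from FGR replicate 2. By Xist, FGR replicate 2 held almost no female tissue, while WT and FGR replicate 1 held some. Sex was not a term of the fit. In the FGR pair Pdha1 was at 173 and 170 CPM, Pgk1 at 146 and 149 CPM and Idh3g at 52.7 and 53.6 CPM. Pdk3 was at 10.7 and 12.6 CPM, on opposite sides of WT.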

How the data were processed

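Trizol extracts of P3 midbrain were made into TruSeq libraries, per the labels' protocols. Per the submitters' processing notes the aligner was HISAT2. Its version is not given in the sources used here, nor is the program that counted reads or the genome build, so positions are given only from references: promoters from RefSeq (GRCm38.p6) and gene order from GENCODE M21. The authors deposited, per library and without a header, raw read counts per gene, a gene length and an RPKM value; the deposited RPKM was not used.

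Genes passing filterByExpr (minimum count 10; 25561 genes) were scaled by TMM and compared, FGR against WT, in edgeR 4.0.16 (R 4.3.3). Its quasi-likelihood F test is two-sided, and p-values adjusted by Benjamini-Hochberg were held to 0.05. Counts at an unadjusted p under 0.05 are descriptions alone, because the share of all genes at that level was not counted. Standard errors are the log2 fold change over the square root of F, and 95% intervals use the t distribution with the fit's total degrees of freedom (median 14). At totals of 46240262 to 58444481 counts, and with spread mostly pooled over genes, members had standard errors of 0.06 to 0.18. Members were picked by symbol, not by count, but they, the lists and the tests were all chosen with earlier results of these data known. By rule, all 40 members are named and, of the other pathway lists, each called gene and the most abundant gene, except 1 that is not reported here; of the marker lists only counts, sums and genes at 0 are given. Copies were sought with blastn among GENCODE M21 transcripts. Alternatives used limma 3.58.1, DESeq2 1.42.0, other scaling and filters, and removal of 3 structural RNA genes or of each FGR library. Protein-coding genes alone and a GC and length offset (mgcv 1.9.3; 25444 genes had a GC value) were added after the data were seen.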

Additional observations from a re-analysis of the deposited data

How the results depend on the processing

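Pfkl, Tpi1 and Eno2 were called lower in all 10 alternative fits and Ldha in 9, and glycolysis calls ranged from 3 to 5. Pyruvate calls were 0 in every fit. Ogdh was the only TCA call, and TCA calls were 0 with genes at 1 CPM or more in every library, with protein-coding genes alone, in limma-voom, in DESeq2 and with a GC and length offset. Over all genes 1087 were called, against 2057 without a filter, 336 with genes at 1 CPM or more in every library and 357 in DESeq2. Higher genes made up 39.0% of the calls, but 24.4% with libraries scaled by their totals, where the medians of glycolysis, pyruvate and TCA genes were -0.108, -0.0535 and -0.0644; the cause was not tested. With the GC and length offset the pyruvate median was 0.0097. Leaving out 1 FGR library, with no test, put the medians at -0.108 to -0.0711 (glycolysis), -0.0225 to -0.0022 (pyruvate) and -0.0618 to -0.0017 (TCA). Leaving out 1 FGR library also turned the sign of 11 members, none of them called: Hk2 (from -0.16 to 0.0164), Pdk3 (0.0829), Pcx (0.0619), Sucla2 (0.0115), Suclg1 (0.0105), Pdha1 (0.0058), Eno1 (0.0045), Fh1 (0.0023), Idh2 (-0.0058), Gapdh (-0.0312) and Dlat (-0.0336). In the refits, signs turned for 12 members that were not called. With the offset these were Hk1 (0.0439), Pfkm (0.0238), Eno1 (0.0341), Pkm (0.0498) and Pcx (0.0506). With library totals they were Mpc1 (-0.0169), Idh2 (-0.0188), Idh3a (-0.0156), Gapdh (-0.0393) and Dlat (-0.0360). With protein-coding genes alone they were Pdha1 (0.0078) and Suclg1 (0.0011). Gapdh was also at -0.0037 and Dlat at -0.00042 with DESeq2 size factors, at -0.015 and -0.012 without a filter, at -0.0083 and -0.0053 with the 1 CPM filter, at -0.0097 and -0.0066 without structural RNA genes and at -0.0039 and -0.00059 in DESeq2. Gapdh was at -0.00014 in limma-voom. No paired analysis was possible because WT has 1 library, so the groups share fewer than 2 replicate numbers. The smallest change called among members was 16.3%, for Ogdh, with a standard error of 0.07. It is not a limit of detection, because some larger changes were not called in the main fit. Pdk2 was 24.0% higher, Pfkfb3 20.3% higher and Aldoa 18.4% lower, with standard errors of 0.15, 0.10 and 0.09.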
